A study of Mus musculus with 6 samples.

Results

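The genes described here are 31 genes of mitochondrial fatty acid oxidation, picked by symbol from a list of enzymes, carriers, thioesterases and 1 regulator by a rule that uses no measured value, although the list was drawn up with earlier results of these data known. All 31 were found among the 54532 genes counted in the inguinal white adipose tissue of old mice, the fat pad under the skin of the groin. That tissue was sequenced as total RNA in 6 libraries, 3 from mice given vehicle and 3 from mice given estrogen, and both groups had been in the cold for 7 days. The comparison of the groups asks what estrogen does to the RNA of this fat pad in aged animals. The labels used here leave out strain, sex, exact age, the form and dose of estrogen and whether each library is a separate animal. The p-values therefore rest on a spread between libraries that may be partly technical.

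Fatty acids reach the mitochondrial matrix as carnitine esters. Cpt1a or Cpt1b makes the ester at the outer membrane, the carrier Slc25a20 exchanges it across the inner membrane, and Cpt2 turns it back into an acyl-CoA. The matrix enzymes then shorten the chain in repeated rounds of dehydrogenation, hydration, dehydrogenation and thiolysis, and the electrons of the opening step pass through the electron transfer flavoprotein to the respiratory chain. In brown and beige adipocytes this pathway fuels heat production, and its genes are known targets of the nuclear receptor PPAR alpha and of its coactivators.

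Levels are given as CPM, counts brought to one common library total after TMM scaling, which corrects totals for composition. No gene of the 31 passed the test between estrogen and vehicle (edgeR quasi-likelihood, Benjamini-Hochberg adjusted p from 0.207 to 0.947, threshold 0.05), as no gene of the 15591 tested did (0% in either direction). All 31 were among the tested genes. On the log2 scale 28 of them were above 0 with estrogen, against 50.3% of all tested genes, and their median log2 fold change was 0.46 (1.37-fold), against 0.0025 over all tested genes. At an unadjusted p under 0.05 by edgeR, 10 were higher, where 9.49% of tested genes were, and 1 was lower, where 10.9% were. DESeq2, another count test, called 4 of the 31 higher (2.38% of the genes it tested) and 0 lower (2.97%). The 4 were Acad10, Acad11, Crat and Mlycd, with DESeq2 adjusted p of 0.020, 0.019, 0.030 and 0.042.

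Several libraries stood apart before any comparison was made. Estrogen replicate 1 carried skeletal muscle transcripts, with a summed level of 7972 CPM over the 10 muscle markers against 36.0 to 114 CPM in the other libraries, and the sarcomere actin gene Acta1 at 1636 CPM against 0.975 to 15.5 CPM. B cell markers summed to 151 and 99.0 CPM in estrogen replicates 1 and 3 and to 3.96 to 6.64 CPM elsewhere. T cell markers summed to 64.6 CPM in estrogen replicate 1 against 2.59 to 10.7 CPM, neutrophil markers to 161 CPM in vehicle replicate 1 against 25.8 to 35.3 CPM, and endothelial markers to 464 to 772 CPM over all libraries. Mammary epithelium markers summed to at most 0.570 CPM, with Krt5, Krt14 and Wap at 0 counts. Adipocyte markers were abundant in every library, from 19771 to 49473 CPM in sum, highest in estrogen replicate 3. Of the 31 genes, 0 had their highest level in estrogen replicate 1 (11.6% of tested genes did), and without that library the median log2 fold change was 0.53.

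**Figure D1:**
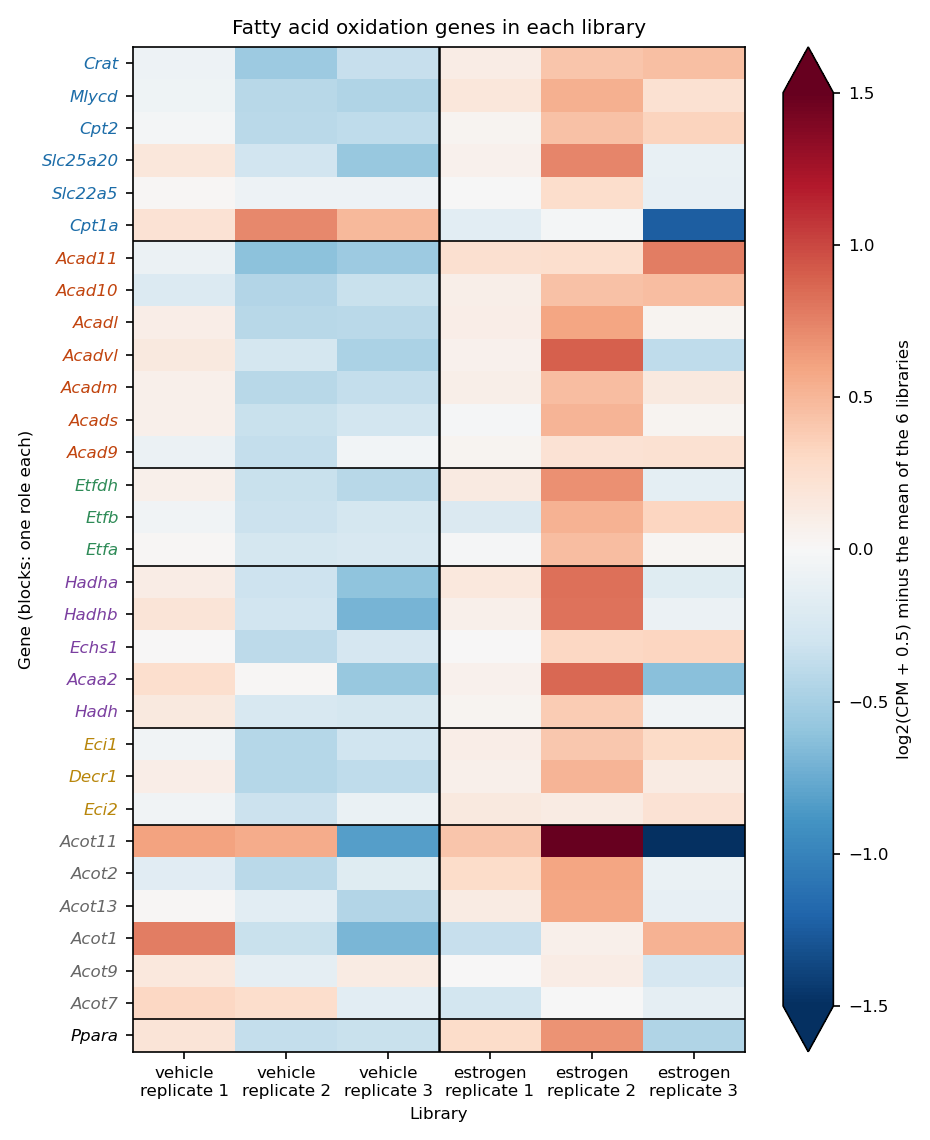
Each cell is the log2(CPM + 0.5) of a gene in a library minus the mean of the 6 libraries, with genes grouped by role and libraries as columns. Estrogen replicate 2 is the darkest red column, Cpt1a is red in the vehicle columns and blue or white in the estrogen columns, and Acot11 goes beyond the colour scale in estrogen replicates 2 and 3.

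The members' level by library did not split cleanly by group. Set against each gene's mean over the 6 libraries, the 31 genes had median deviations of 0.07, -0.33 and -0.35 log2 units in the vehicle libraries and 0.07, 0.46 and 0.03 in the estrogen ones, in replicate order. Vehicle replicate 1 thus matched estrogen replicate 1 and lay above estrogen replicate 3. Together the genes took 0.659 to 1.14% of a library's counts. For 11 of the 31 every estrogen library was above every vehicle library, where 12.8% of tested genes were, and for 1, Cpt1a, every estrogen library was below (14.7%). The median was 0.22 without estrogen replicate 2. At an unadjusted p under 0.05 by edgeR, 5 of the 31 genes were then higher, where 9.49% of all tested genes were. Without vehicle replicate 2 the number was also 5, where 4.01% of all tested genes were higher. Cpt1a reached that p neither without vehicle replicate 2 nor without vehicle replicate 3. In bulk tissue, fewer cells of a type and less RNA per cell cannot be told apart.

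Among the genes that bring fatty acids in, Cpt1a stood against the others. Cpt1a, the carnitine palmitoyltransferase of the outer membrane and the controlled step of the pathway (ENSMUSG00000024900, chromosome 19, 3323301 to 3385732, mm10), had levels of 83.4, 118 and 101 CPM in the vehicle libraries, in replicate order, against 64.4, 70.1 and 30.1 CPM in the estrogen libraries. All 3 estrogen libraries were below all vehicle libraries, and estrogen replicate 3 was the lowest. Its means were 100.6 ± 17.2 CPM with vehicle and 54.8 ± 21.6 CPM with estrogen (SD, n = 3). The log2 fold change was -0.87, with a standard error (SE, given after ± for every log2 fold change here) of 0.31. The edgeR adjusted p was 0.212 and the unadjusted one 0.026, and the log2 fold change lay between -1.17 and -0.58 under the 12 alternative settings tried, nearest to 0 without estrogen replicate 3. Vehicle replicate 2, where Cpt1a was highest, and estrogen replicate 3, where it was lowest, also held the extremes of the fibroblast marker sum, at 33689 and 1221 CPM, and of the macrophage marker sum, at 2819 and 476 CPM. The part of those cells in the Cpt1a difference was not tested.

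Cpt2, the inner membrane partner that reverses the transfer (chromosome 4, 107903981 to 107923610), was at 315, 242 and 246 CPM with vehicle and 329, 435 and 404 CPM with estrogen, in replicate order as in all later lists. The estrogen libraries all lay above the vehicle ones, by 1.45-fold (log2 0.54 ± 0.17, edgeR adjusted p = 0.207). Per length, as given in the count table, the ratio of Cpt1a to Cpt2 was 0.147, 0.271 and 0.227 with vehicle and 0.109, 0.0896 and 0.0415 with estrogen, a mean of 0.215 ± 0.0625 against 0.0799 ± 0.0347 (SD, n = 3) with no overlap. The ratio was picked after its values were seen. Cpt1b, the muscle and brown fat form of the outer membrane enzyme, was much lower, at 2.64, 1.37 and 1.52 CPM and at 2.95, 6.68 and 0.418 CPM. Cpt1c, a further form, was at 7.37, 16.7 and 7.85 CPM with vehicle and 7.36, 6.81 and 2.93 CPM with estrogen. Like Cpt1a it was lower in every estrogen library (14.7% of tested genes were), but its nearest libraries, at 7.36 and 7.37 CPM, were hardly apart. Both genes were highest in vehicle replicate 2 and lowest in estrogen replicate 3, as were 13.5% of tested genes. The log2 fold change of Cpt1c was -0.89 ± 0.45 (unadjusted p = 0.085 by edgeR).

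Slc25a20, the carnitine-acylcarnitine carrier, was at 218, 158 and 130 CPM with vehicle and 202, 321 and 179 CPM with estrogen, and the groups overlapped. Slc22a5, which takes carnitine into the cell, was at 35.1, 32.8 and 32.8 CPM and at 34.6, 41.7 and 31.6 CPM, also with overlap and a log2 fold change of 0.10 ± 0.13. Crat, the carnitine acetyltransferase that buffers acetyl-CoA, was at 545, 392 and 450 CPM and at 619, 763 and 784 CPM. Crat did not overlap between groups and had a log2 fold change of 0.64 ± 0.18 (unadjusted p = 0.00885 by edgeR). Mlycd, which breaks down malonyl-CoA, the inhibitor of the outer membrane enzyme, was at 78.0, 60.9 and 59.5 CPM and at 91.5, 118 and 95.9 CPM, again without overlap (log2 0.62 ± 0.16, chromosome 8, 119394878 to 119411102).

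**Figure D2:**
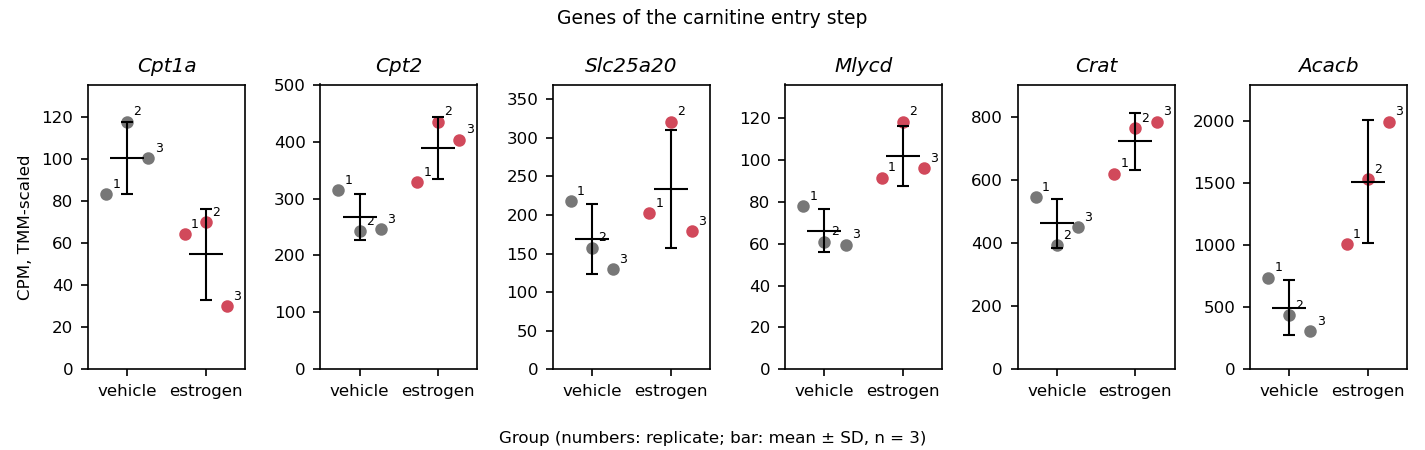
Points are CPM in each library by group, with replicate numbers beside them and bars for the mean ± SD of 3 libraries, for 5 genes of the entry step and for Acacb, which makes malonyl-CoA. Cpt1a runs from 83.4 to 118 with vehicle and from 30.1 to 70.1 with estrogen, while Cpt2, Mlycd, Crat and Acacb are higher in every estrogen library and Slc25a20 overlaps.

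The acyl-CoA dehydrogenases open each round, and each prefers a chain length. All 7 had a log2 fold change above 0, from 0.32 to 0.84 with a median of 0.46. Without estrogen replicate 2 all 7 were still above 0, with a median of 0.29. Acad11, which handles long and hydroxylated chains, led them and all 31 genes at 143, 99.1 and 104 CPM with vehicle and 180, 182 and 260 CPM with estrogen. Its groups did not overlap, and its log2 fold change was 0.84 ± 0.21 (1.79-fold, unadjusted p = 0.0054 by edgeR, chromosome 9, 104063377 to 104127725). Acad10, a little studied relative (chromosome 5, 121621026 to 121660514), was at 24.6, 20.9 and 22.5 CPM and at 30.4, 38.8 and 39.6 CPM, a log2 fold change of 0.68 ± 0.14. It had the smallest unadjusted p of the 31 genes, 0.0018 by edgeR.

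Acadm, the medium-chain enzyme, was at 812, 579 and 603 CPM with vehicle and 819, 1065 and 856 CPM with estrogen, so that the lowest estrogen library was only just above the highest vehicle one. Acadl, the long-chain enzyme, was at 790, 554 and 557 CPM and at 792, 1110 and 762 CPM, and there estrogen replicate 3 was below vehicle replicate 1. Acads, the short-chain enzyme, was at 249, 188 and 196 CPM and at 234, 337 and 244 CPM, with overlap. Acadvl, the very-long-chain enzyme of the inner membrane, varied most among the dehydrogenases between estrogen libraries, at 349, 261 and 227 CPM with vehicle and 329, 583 and 241 CPM with estrogen. Its log2 fold change of 0.46 ± 0.34 was 0.03 without estrogen replicate 2. Acad9, better known as an assembly factor of respiratory complex I, was at 54.0, 44.5 and 55.9 CPM and at 59.1, 66.6 and 67.2 CPM, with no overlap and a log2 fold change of 0.32 ± 0.13.

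Electrons leave through Etfa and Etfb, the subunits of the electron transfer flavoprotein, and Etfdh, the oxidoreductase that passes them to ubiquinone. Etfa was at 369, 303 and 309 CPM with vehicle and 360, 500 and 373 CPM with estrogen, and Etfdh at 257, 193 and 182 CPM and 269, 393 and 220 CPM. Etfb was at 49.95, 41.3 and 42.9 CPM and at 44.5, 74.5 and 64.7 CPM. All 3 overlapped between the groups, and their log2 fold changes of 0.33, 0.48 and 0.45 did not reach an unadjusted p under 0.05 by edgeR. Without estrogen replicate 2 these values were 0.16, 0.21 and 0.29. The 2 subunits pair in the protein, but per length Etfa was 4.64 ± 0.056 times Etfb with vehicle and 4.35 ± 0.746 times with estrogen (SD, n = 3). Of all runs of 50 bases (windows) in the longest coding transcript of Etfb, 67.3% also occur in the overlapping gene model Gm45233, which had 4 counts in all libraries together, so the Etfb level is uncertain.

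The next steps are carried by the trifunctional protein of the inner membrane, built of Hadha and Hadhb, and in the matrix by Echs1, Hadh and Acaa2. Hadha and Hadhb lie head to head on chromosome 5 (30118304 to 30155162 and 30155248 to 30184593), with 85 bases between the gene bounds given in the count table. RefSeq places their starts 273 bases apart. The stretch is shown because it is the shared upstream sequence of 2 genes that lie head to head. It is chr5:30155133-30155277 on the plus strand of the GRCm38.p6 build (mm10), from RefSeq, with the 85 bases in capitals and 30 bases of each gene beside them.
Hadha and Hadhb: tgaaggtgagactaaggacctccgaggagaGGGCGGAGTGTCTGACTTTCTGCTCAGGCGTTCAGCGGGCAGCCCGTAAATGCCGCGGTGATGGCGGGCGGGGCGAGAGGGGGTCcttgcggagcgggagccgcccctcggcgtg
G and C make up 69.4% of the capitals.

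Hadha was at 891, 669 and 543 CPM with vehicle and 920, 1465 and 731 CPM with estrogen, and Hadhb at 803, 574 and 432 CPM and 741, 1234 and 661 CPM. Both were highest in estrogen replicate 2 and lowest in vehicle replicate 3, as were Acadvl, Hadh, Slc25a20, Etfdh, Acot13 and Mlycd. Estrogen replicate 2 was the highest library for 12.9% of all tested genes, and the share with both traits was not counted. Hadha and Hadhb both overlapped between the groups. Their ratio per length, as given in the count table, hardly moved, at 0.889 ± 0.056 with vehicle and 0.890 ± 0.052 with estrogen (SD, n = 3). The size of that ratio depends on the length used. Per kilobase of the longest coding transcript, the vehicle means were 175 ± 43.9 CPM for Hadha and 294 ± 91.3 CPM for Hadhb. The log2 fold changes were 0.57 ± 0.30 for Hadha and 0.54 ± 0.31 for Hadhb, and without estrogen replicate 2 they were at 0.23 and 0.22. Hadhb shares 62.4% of its 50-base windows with other gene models, mainly the processed pseudogene Gm13910 on chromosome 2, whose counts were 26.5 to 28.5% of those of Hadhb in every library. How the counting treated reads that fit both is not given, so the Hadhb level is uncertain.

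Echs1, the short-chain hydratase, was at 407, 309 and 342 CPM with vehicle and 409, 503 and 509 CPM with estrogen, with the groups just apart (log2 0.42 ± 0.17). Hadh, the matrix hydroxyacyl dehydrogenase, was at 569, 435 and 430 CPM and at 528, 673 and 495 CPM. Acaa2, the matrix thiolase, was at 408, 345 and 230 CPM and at 356, 622 and 221 CPM, with estrogen replicates 2 and 3 as its highest and lowest libraries. Its log2 fold change of 0.29 ± 0.39 was -0.18 without estrogen replicate 2.

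Unsaturated chains need extra enzymes that move or reduce a double bond. Eci1, the main enoyl-CoA isomerase (chromosome 17, 24426683 to 24439316), was at 182, 140 and 153 CPM with vehicle and 203, 250 and 230 CPM with estrogen. Eci2, the isomerase shared with peroxisomes, was at 92.1, 76.2 and 88.9 CPM and at 105, 104 and 111 CPM. Neither overlapped, and the estrogen libraries of Eci2 were close together; log2 fold changes were 0.52 ± 0.15 and 0.32 ± 0.12. Decr1, the dienoyl-CoA reductase, was at 388, 269 and 278 CPM and at 381, 517 and 394 CPM, with vehicle replicate 1 above estrogen replicate 1.

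The acyl-CoA thioesterases, which cut acyl-CoA to the free acid, had signs of both kinds: 4 of 6 had a log2 fold change above 0, and the median was 0.25. Without estrogen replicate 2, 3 of 6 were above 0 and the median was -0.03. Without vehicle replicate 3 the median was 0.11, without vehicle replicate 2 it was 0.15, and without vehicle replicate 1 and estrogen replicate 1 it was 0.55 and 0.38. Acot2, the matrix enzyme, was at 27.7, 23.5 and 27.6 CPM with vehicle and 38.0, 47.3 and 29.2 CPM with estrogen, without overlap (log2 0.54 ± 0.18). Acot13 was at 28.0, 24.7 and 20.2 CPM and at 30.1, 41.7 and 25.4 CPM. Acot9, also mitochondrial, was at 47.5, 38.6 and 46.4 CPM and at 42.7, 46.0 and 35.5 CPM, a log2 fold change of -0.09 ± 0.14. These last 2 genes overlapped between the groups. Acot7, mainly a cytosolic enzyme, was at 27.03, 26.3 and 19.4 CPM and at 17.9, 21.6 and 19.8 CPM, a log2 fold change of -0.29 ± 0.16 with 2 of the estrogen libraries above vehicle replicate 3. Acot1, the cytosolic twin of Acot2, had only 215 counts in all, 22 to 69 per library, and a log2 fold change of 0.08 ± 0.55. Acot1 shares 33.6% of its 50-base windows with other genes, mostly Acot2, and Acot2 shares 27.7%, so reads of the pair could be split by the counting.

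Acot11, a thioesterase named for its induction in brown fat by cold (ENSMUSG00000034853, chromosome 4, 106744555 to 106804998), was the most variable of the 31 genes. It was at 114, 111 and 42.2 CPM with vehicle and 101, 296 and 10.9 CPM with estrogen, so estrogen replicates 2 and 3 were its highest and lowest libraries and differed by 4.70 log2 units. Its log2 fold change was 0.61 ± 0.95, and -0.68 without estrogen replicate 2, with a negative sign also by limma-voom. Ucp1, the uncoupling protein that makes heat, had the same top and bottom libraries, at 907, 589 and 333 CPM and at 696, 1754 and 10.2 CPM. Ppara, the regulator of the pathway, was at 21.6, 14.5 and 14.8 CPM and at 22.9, 30.3 and 13.6 CPM, again highest in estrogen replicate 2 and lowest in estrogen replicate 3.

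**Figure D3:**
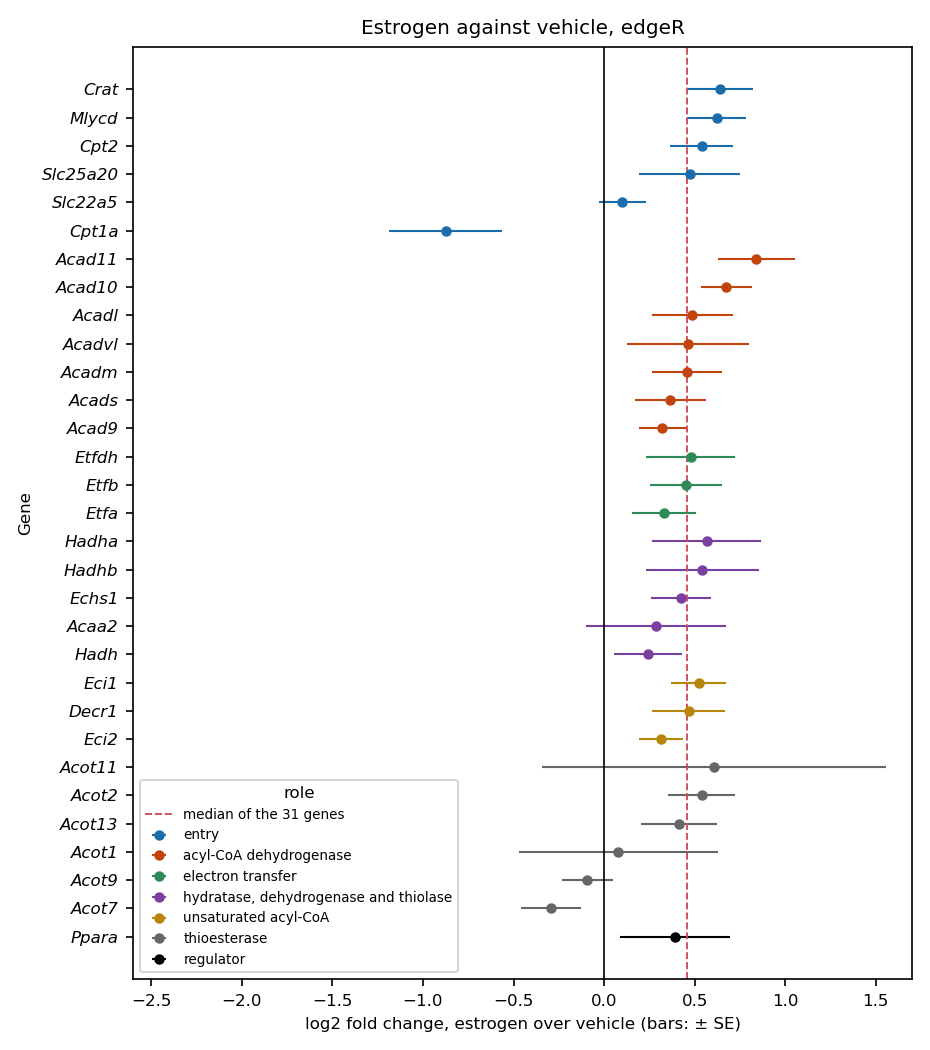
Points are log2 fold changes of estrogen over vehicle for the 31 genes, with bars of 1 standard error, coloured by role, and the dashed line is their median of 0.46. Cpt1a at -0.87 and Acad11 at 0.84 are the ends of the range, and Acot11 has the widest bar.

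The spread within the estrogen group was of the same order as the group difference. Estrogen replicate 2 was the highest library for 21 of the 31 genes, where it was for 12.9% of all tested genes, and estrogen replicate 3 was the highest for 6 (28.6% of tested genes) and the lowest for 6 (29.4%). Both held, replicate 2 highest and replicate 3 lowest, for 4 genes, Acot11, Acaa2, Ppara and Slc22a5 (2.64% of tested genes). The median log2 ratio of estrogen replicate 2 over replicate 3 was 0.39 for the 31 genes and 1.89 for the brown and beige markers, and -0.60 for the adipocyte markers. Acad11, at -0.51, Crat, at -0.04, and Acad10, at -0.03, did not share the excess of replicate 2. Their log2 fold changes between the groups were 0.84, 0.64 and 0.68. Acot1, at -0.45, Eci2, at -0.10, Echs1, at -0.02, and Acad9, at -0.01, did not share it either. Those genes had smaller log2 fold changes, of 0.08, 0.32, 0.42 and 0.32. Brown and beige markers summed to 1838, 1301 and 845 CPM with vehicle and 1538, 3499 and 536 CPM with estrogen. Between the groups their median log2 fold change was 0.55, with 10 of 10 above 0, and without estrogen replicate 2 it was -0.09, with 4 of 10 above 0. Their part in these results was not tested.

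**Figure D4:**
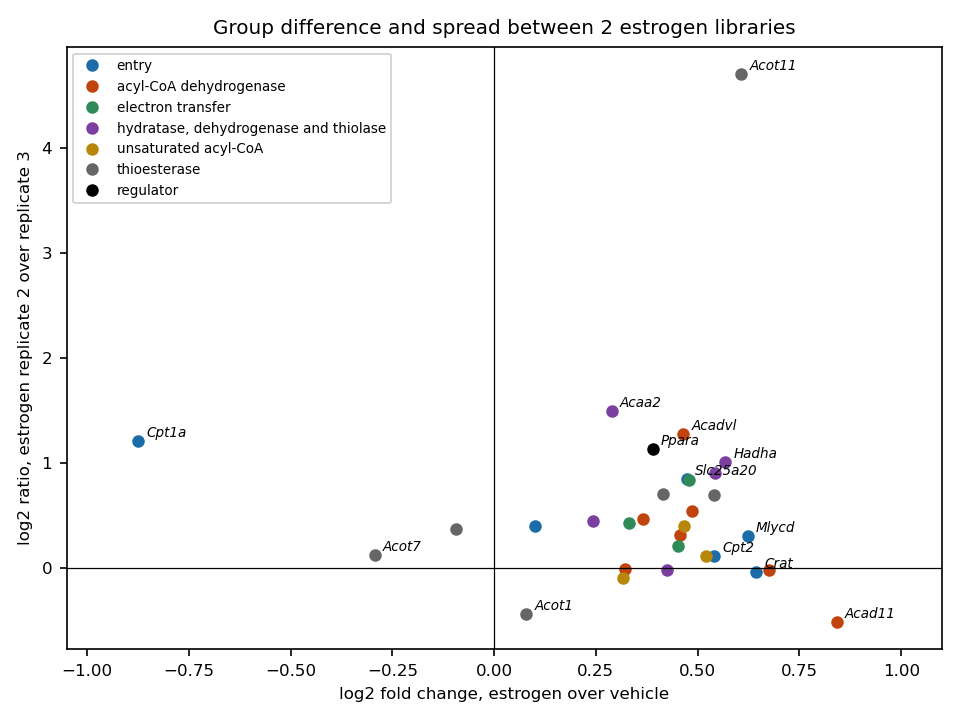
Each point is 1 of the 31 genes, coloured by role, with the log2 fold change of estrogen over vehicle on the horizontal axis and the log2 ratio of estrogen replicate 2 over estrogen replicate 3 on the vertical axis. Acot11 stands alone at 4.70, Acaa2 is at 1.49, Cpt1a is at 1.21 on the left, and Acad11 is at -0.51 with the largest fold change.

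At an unadjusted p under 0.05 by edgeR, 2 of 10 adipocyte markers were higher (9.49% of all tested genes) and 0 lower (10.9%), and 0 passed the adjusted threshold. For these markers, the median log2 fold change between the groups was 0.57, with 8 of 10 above 0. Without estrogen replicate 3 that median was 0.20. When the libraries were scaled so that 6 adipocyte markers had an equal mean level, the median of all tested genes was -0.37 and that of the 31 genes 0.11. On that scale 0 of the 31 genes were higher at an unadjusted p under 0.05 by edgeR and 1 was lower. Among all tested genes 204 were higher at that p, against 1480 with TMM scaling, and 1992 were lower. On the marker scale 7 of the 31 genes had a negative sign that was positive before, and Acad11 was at 0.43. Cpt1a was at -1.17. With TMM scaling, fibroblast and macrophage markers were lower, with medians of -1.33 and -1.21 and 8 of 8 below 0 in each. At an unadjusted p under 0.05 by edgeR, 7 and 6 of them were lower (10.9% of all tested genes). Without vehicle replicate 2 the medians were -0.84 and -1.10, and 2 and 3 were lower at that p (5.04%).

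**Figure D5:**
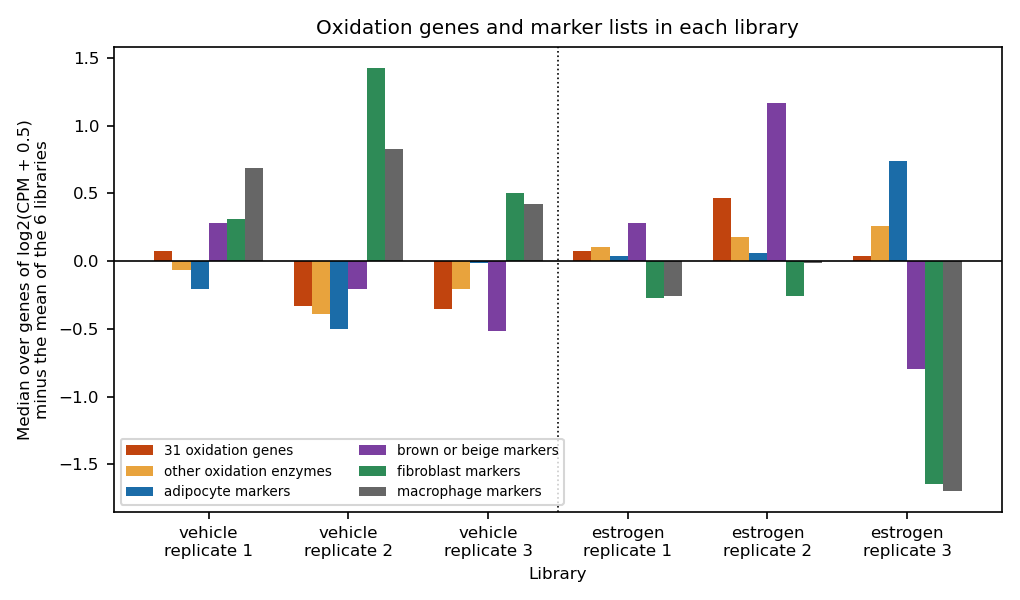
Bars are the median over each gene list of log2(CPM + 0.5) minus the mean of the 6 libraries, by library. The 31 oxidation genes are at 0.07 in vehicle replicate 1 and 0.03 in estrogen replicate 3, while adipocyte markers are highest and fibroblast, macrophage and brown markers lowest in estrogen replicate 3.

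Within the tissue the 31 genes spanned a wide range of levels. Per kilobase of the longest coding transcript, the vehicle libraries held Acadl at 331 ± 70.7, Acadm at 325 ± 62.7, Hadhb at 294 ± 91.3 and Hadh at 267 ± 44.2 CPM per kilobase (SD, n = 3). These SDs are over libraries and do not measure the difference between genes within a library. The order of these genes was not tested. Cpt1a came 23rd of 31, at 23.3 ± 3.99 CPM per kilobase, below Cpt2 at 113 ± 17.2. Acot1 was the lowest. The order depends on the length used: with the gene lengths of the count table, which span all exons, Echs1 went from 6th to 14th and Acaa2 from 7th to 2nd, and Acadl stayed first.

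Some levels also rest on how shared reads were counted. The longest coding transcript of 12 of the 31 genes shares more than 10% of its 50-base windows with another gene model, and 14 share none, among them Cpt1a, Cpt2, Mlycd, Acadl, Acads and Hadh. Acad10 shares 20.4% with Acad12, a neighbouring relative that had 3095 counts in all and was also higher in every estrogen library. Acad11 shares 14.8%, mainly with Ackr4 on the opposite strand, which had 165 counts. Slc22a5 shares 27.1%, mainly with its relative Slc22a21, and Acot9 shares 20.2% with Acot10, which had 6 counts. Acadvl shares 24.0% with Dvl2 on the opposite strand, whose 1852 counts were 5.15% of those of Acadvl. Acot11 shares 19.0% with Fam151a, also on the opposite strand, which had 1 count. Echs1 overlaps Paox on the opposite strand, whose counts came to 10.4% of its own, and Crat overlaps Dolpp1 (4.82%). The strand setting of the counting is not known here, so reads of such pairs cannot be told apart.

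Other enzymes of fatty acid, branched-chain and peroxisomal oxidation from a second list of 26 genes, 25 of them tested, had a median log2 fold change of 0.46, with 24 above 0 and 0 past the edgeR threshold in either direction. At an unadjusted p under 0.05, 14 were higher (9.49% of all tested genes) and 0 lower (10.9%), and DESeq2 called 4 higher (2.38%) and 0 lower (2.97%). Without vehicle replicate 2, 6 were higher at that p, where 4.01% of all tested genes were. Acaa1b, a peroxisomal thiolase, was at 59.3, 38.1 and 45.7 CPM with vehicle and 94.4, 110 and 79.5 CPM with estrogen, and Ehhadh, the peroxisomal bifunctional enzyme, was at 124, 56.8 and 80.6 CPM and 176, 169 and 215 CPM. Acot4, a peroxisomal thioesterase, was at 9.15, 6.07 and 8.68 CPM and 17.8, 13.7 and 47.5 CPM, and Acad12 had a log2 fold change of 0.48 ± 0.13. Acaa1b and Acot4 have close relatives, Acaa1a and Acot3, so their counts are uncertain. By library these enzymes lay at -0.06, -0.39 and -0.20 with vehicle and at 0.11, 0.18 and 0.26 with estrogen, so here the groups did not overlap and estrogen replicate 3 was highest.

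Of 20 regulators, 0 passed the edgeR threshold, 7 were higher (9.49% of all tested genes) and 0 lower (10.9%) at an unadjusted p under 0.05, and the median was 0.25. That number was 3 without vehicle replicate 2 (4.01% of all tested genes) or without vehicle replicate 3 (6.27%). Ppargc1b, a coactivator of mitochondrial genes, had a log2 fold change of 1.005 ± 0.17. Acacb and Acaca, which make malonyl-CoA, had 1.61 ± 0.38 and 0.85 ± 0.22. Acacb was at 741, 439 and 309 CPM with vehicle and 1008, 1533 and 1998 CPM with estrogen, so the maker of malonyl-CoA and Mlycd, its breaker, were both higher in every estrogen library. Tfam, the mitochondrial transcription factor, had a log2 fold change of 0.30 ± 0.10. Targets of PPAR outside oxidation had a median of 0.31, with 4 of 15 higher (9.49% of all tested genes) and 0 lower (10.9%) at an unadjusted p under 0.05 by edgeR and 0 past the adjusted threshold. That median was -0.07 without estrogen replicate 2 and 0.64 and 0.60 without vehicle replicate 1 and estrogen replicate 3, and 2 were higher at that p without vehicle replicate 2. These 4 were Slc27a1, a fatty acid transporter, at 1.60, Me1, the malic enzyme, at 1.35, Gpd1 at 0.80 and Acsl1, an acyl-CoA synthetase, at 0.78. Among estrogen receptors, Esr1 (receptor alpha) was at 0.62 ± 0.23 on the log2 scale, Gper1 was at 0.48 ± 0.36, and Esr2 had 1 count over all libraries.

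Promoter windows, from 250 bases before to 50 after the RefSeq start (GRCm38.p6), were found for 26 of the 31 genes. The direct repeat bound by PPAR with its partner RXR, AGGTCA followed by any 1 base and AGGTCA again, was searched on both strands with up to 2 mismatches. It was found for 3 of the 26, Echs1, Etfa and Slc25a20, each time with 2 mismatches, against 3.86% of all windows. That share is over 32851 windows and not over genes. In Slc25a20 the match began at position 7 after the RefSeq start, and in Echs1 and Etfa it lay before the start. The 3 stretches are shown because PPAR alpha is the known regulator of the pathway. They are chr7:140116484-140116512 and chr9:55512300-55512328, both on the minus strand, and chr9:108662134-108662162 on the plus strand, with the match in capitals.
Echs1: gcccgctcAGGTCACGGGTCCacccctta
Etfa: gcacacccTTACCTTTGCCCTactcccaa
Slc25a20: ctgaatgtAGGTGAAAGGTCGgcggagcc
In Etfa the match lies on the opposite strand. No window of the 26 held TCAAGGTCA, the element of estrogen-related receptors, with no mismatch (0.423% of all windows), or the estrogen response element, GGTCA and TGACC with 3 bases between them, with up to 1 mismatch (0.877%). Both were searched on both strands. A match is a run of letters and not a shown binding site. Of the 3 genes with a match, Echs1 alone had every estrogen library above every vehicle one, where 12.8% of all tested genes did. Its nearest libraries were at 409 and 407 CPM. A link between a match and the level was not tested.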

How the data were processed

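RNA of 6 adipose tissue libraries was measured. The deposited values are whole read counts for each gene without normalization, which the authors made with HISAT2 and featureCounts on mm10, per the submitters' processing notes; versions, strand setting and treatment of multi-mapping reads were not stated in the labels or notes read here. The gene length in the authors' table was used only to set levels per length. Groups and replicate numbers came from the sample titles. The count table numbers its columns otherwise: vehicle replicate 2 is column number 3, and replicate 3 of either group is number 4. Total counts ran from 16046601 to 20736771, and 3 counts equal 0.145 to 0.187 CPM. No 2 libraries of a group agreed within sampling noise (chi-square per degree of freedom 45.9 to 98.1).

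All genes were fitted together with edgeR 4.0.16 (R 4.3.3) by its quasi-likelihood test, after TMM scaling and filterByExpr, with no replicate block. P-values were adjusted by Benjamini-Hochberg over the 15591 tested genes. The standard error of a log2 fold change is its size over the square root of F. Alternatives used DESeq2 1.42.0 and limma-voom 3.58.1, other scalings, no filter, a block, and each library left out. The edgeR script was tested on simulated data. GENCODE M21 matched 31 of 31 gene identifiers and gave transcript lengths and shared 50-base windows; 28 had the same start and end. Lists of pathway and marker genes, the members and the motifs were chosen with earlier results of these data known. Values per library were given for the 30 genes whose mean log2 CPM reached 3 or more, and each pathway list names up to 4 genes of smallest p. Cpt1b, Cpt1c, Acta1 and Ucp1 were named outside this rule, after their values were seen. A p of 0.05 was the threshold.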

Additional observations from a re-analysis of the deposited data

How the results depend on the processing

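With DESeq2, 364 genes were higher and 453 lower past the adjusted threshold, and 4 of the 31 genes were higher, against 0, 0 and 0 by edgeR. Scaling on 6 adipocyte markers gave 204 genes higher at an unadjusted p under 0.05, against 1480, a median of 0.11 for the 31 genes and 0 of them higher at that p, against 0.46 and 10. Leaving out each library in turn gave 0 to 13 genes higher and 0 lower past the adjusted threshold, 647 to 1536 higher and 812 to 1784 lower at an unadjusted p under 0.05, 5 to 13 of the 31 genes higher and 0 to 1 lower at that p, and a median of 0.22 to 0.63 for them. The lowest median and the 13 genes past the adjusted threshold came without estrogen replicate 2. The lowest counts of genes at an unadjusted p, in both directions, came without vehicle replicate 2. With the replicate number as a block, 8 of the 31 genes were higher and 1 was lower at an unadjusted p under 0.05 by edgeR. Among all tested genes 1341 were then higher and 1964 lower, and the median of the 31 genes was 0.43. The labels do not say that equal numbers in the titles mark a pairing. The column numbers of the count table differ from them for vehicle replicate 2 and for replicate 3 of either group. Deviations of libraries with the same title number correlated at -0.12, 0.16 and 0.29. Directions changed for Acad9 (-0.036), Hadh (-0.096), Etfa (-0.015), Eci2 (-0.044), Acaa2 (-0.017), Acot1 (-0.36) and Slc22a5 (-0.24) under adipocyte marker scaling. They changed for Acot11 under limma-voom (-0.24) and the block (-0.20), and for Acaa2 (-0.18), Acot11 (-0.68) and Slc22a5 (-0.019) without estrogen replicate 2. Over single libraries left out, these 3 reached 0.59, 1.16 and 0.19 at most, and Acot1 reached 0.82. Acot1 was at -0.12 without vehicle replicate 2, -0.25 without vehicle replicate 3 and -0.22 without estrogen replicate 3, where Acot9 was at 0.0074. The cause was not tested. Without the filter and with DESeq2 size factors, 31 of 31 genes kept their direction. Depth limits Acot1 most, at 215 counts.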
